A study of Lachancea kluyveri with 9 samples.

Results

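The 200 most abundant long single-part gene models of the budding yeast Lachancea kluyveri were described across its 3 cell types. They were taken from a table of 5189 models, of which 3665 met the conditions. A model had to have 1 coding part, a coding length of at least 400 bp, and a place more than 30000 bp from the first base and from the last model end of its chromosome. Models starting in the first 1000000 bp of chromosome C were left out. Counts were divided by length in kb and by library totals in units of 1000000 counts, averaged over the 9 libraries, and the 200 highest means were kept. The models were thus chosen by their mean level over all 9 libraries, which is given as a description only. The choice did not rank models by the differences between cell types, which were tested. A high mean in 1 cell type could still bring a model in, as described below.

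Poly(A) RNA was sequenced from a cells (strain yLB76), alpha cells (strain yLB77) and a/alpha cells (strain FDy22), with 3 libraries each. The first 2 strains are haploid and of opposite mating type, while a/alpha cells carry both mating-type alleles. All strains are labelled wild type and prototrophic, and all were grown in YPED medium at 30 °C. Each cell type was represented by 1 strain, so that cell type and strain cannot be told apart.

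In fast-growing budding yeasts the most abundant mRNAs encode ribosomal proteins, translation factors, glycolytic enzymes and cell wall proteins. Introns are rare in these genomes and are frequent in ribosomal protein genes. In a/alpha cells of budding yeasts a heterodimer of mating-type proteins represses haploid-specific genes, which in Saccharomyces cerevisiae include genes of the pheromone response. The series asks which genes are transcribed in both haploid types and not in a/alpha cells. The files pair no gene names with the models, so the models are named by their positions in the deposited table. Coordinates are those of the deposited table, whose build is not named in the sources used here, and the cell type labels were not checked against mating-type genes.

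The libraries held between 743244 counts (a/alpha replicate 1) and 10776548 counts (a/alpha replicate 2). The lowest count of any of the 200 models in any library was 19, and the median over the models of the mean count was 4080. All 200 models were among the 5042 models that edgeR tested. Values given per library below are counts per kb per 1000000 counts after scaling with TMM size factors, called the level. Such values are relative to the other RNAs of a library, and less of an RNA per cell or more of all others cannot be told apart. The libraries were made with a directional kit of the dUTP type, in which first reads usually run opposite to the RNA, while the counting used strand setting 1, which counts first reads on the strand of the model. The orientation of the reads is not stated, so this conflict could not be settled, and which strand the counts measure is uncertain. In 57 pairs of models nested on opposite strands, the shorter model had more counts per kb in 45, by a median of 1.84-fold, and 5 of the 200 models that overlap a model on the opposite strand are the most uncertain.

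The ranking used means of counts per kb per 1000000 counts without TMM scaling, called the ranking value. It spanned 56.3-fold over the 200 models, with a highest of 19023, a median of 594 and a lowest of 338. The median over the 3665 models that could have been chosen was 33.6. A ranking value of at least 1000 was reached by 61 models and of at least 5000 by 18, while 73 lay under 500. The ranking had no gap where it was cut. The last models inside were on chromosome G from 1487718 to 1489019 (rank 199, 339) and on chromosome E from 177770 to 178483 (rank 200, 338). The first models outside were on chromosome G from 1351648 to 1352178 (337) and on chromosome H from 2023940 to 2025424 (337).

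Of the 200 models, 129 were among the 200 highest in each of the 9 libraries, and 14 were in fewer than 5. In all, 290 models were in the top 200 of at least 1 library. By the means of single cell types, 182, 184 and 179 members were in the top 200 of a, alpha and a/alpha cells, and 156 in that of all 3. The 200 models were not the 200 highest of the whole table. Of those, 68 were members, 71 had several coding parts, 55 were single-part models under 400 bp, and 6 were long single-part models near a chromosome end or on the chromosome C arm. The highest of the 200 had rank 13 in the whole table and the lowest rank 424.

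In 6 models the mean of 1 cell type alone reached the ranking value of the first model left out. These were ranks 152, 186 and 199 in a cells, ranks 169 and 197 in alpha cells and rank 193 in a/alpha cells. The choice itself favoured a high value in that cell type. Their differences from it are therefore given as values with no p, although they stand in the counts of calls. More widely, 8 members fell below the same ranking value over the alpha and a/alpha libraries alone. Over the a and a/alpha libraries alone 7 did, and over the a and alpha libraries alone 6. For these members too the tests are not independent of the choice, and they stand in the counts of calls.

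**Figure D1:**
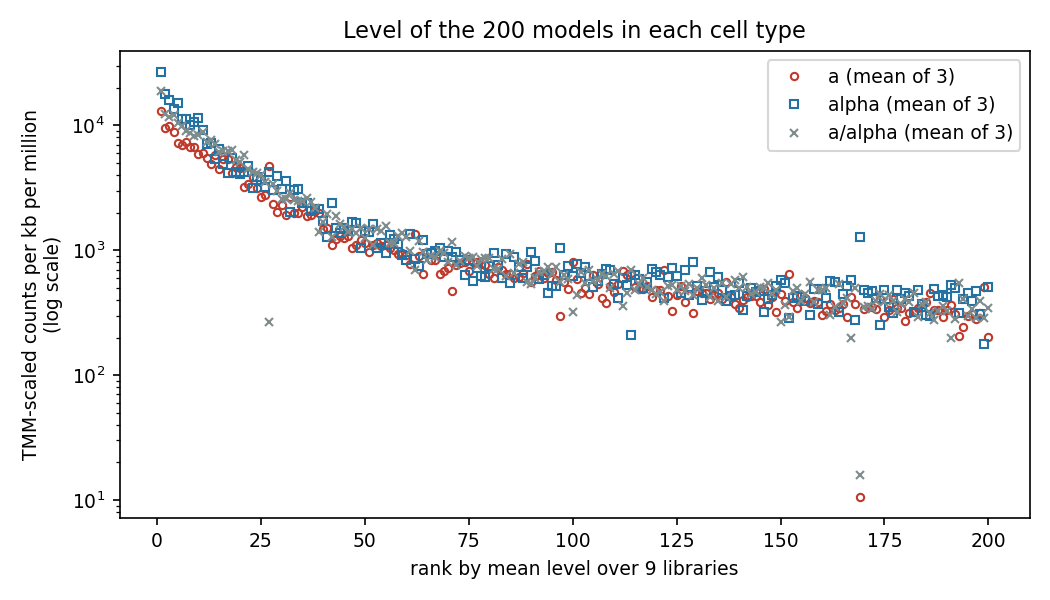
Mean level of each of the 200 models in a, alpha and a/alpha cells (TMM-scaled counts per kb per 1000000 counts, log scale, mean of 3 libraries) against its rank by the mean over 9 libraries. Most models lie close together in the 3 cell types, while rank 27 is low in a/alpha cells (264) and rank 169 is low in a (10.7) and a/alpha cells (15.9).

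The 10 highest models were spread over 6 chromosomes and had coding lengths of 429 to 768 bp. The first was a minus-strand model on chromosome D from 1209577 to 1210005. Its level was 10612, 13858 and 14568 in a replicates 1, 2 and 3, 21722, 27339 and 31068 in the alpha, and 19303, 18262 and 19339 in the a/alpha libraries. The groups did not overlap, with a lowest and alpha highest. The second, on chromosome B from 783034 to 783555, averaged 9491 ± 1163 for a cells, 17941 ± 2689 for alpha cells and 12302 ± 443 for a/alpha cells (SD, n = 3 each).

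Ranks 3 to 5 lay on chromosome H from 1845677 to 1846123, on chromosome G from 1506859 to 1507626 and on chromosome E from 553434 to 554006. Ranks 6 to 8 lay on chromosome B from 63914 to 64573, on chromosome D from 978603 to 979073 and on chromosome F from 978415 to 979020. Ranks 9 and 10 lay on chromosome F from 1238152 to 1238826 and on chromosome D from 1151306 to 1151806. Mean levels of these 8 models ran from 5851 to 9871 among a cells, from 10145 to 15855 among alpha cells and from 8146 to 12198 among a/alpha cells. For each of the 10 models the 3 a libraries lay below the 3 alpha libraries.

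The 200 models were short for their kind. Their median coding length was 715.5 bp, against 1332 bp for the 3665 models they were taken from, and 137 (68.5%) were under 1000 bp, against 32.4%. Inside the set the median was 663 bp for ranks 1 to 50, 774 bp for 51 to 100, 730.5 bp for 101 to 150 and 679.5 bp for 151 to 200. The minus strand held 107 models. Chromosomes A to H held 20, 27, 5, 26, 21, 27, 38 and 36 models, or between 4.48% and 6.92% of the models each chromosome could have given.

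Only 12 of the 200 models had another member as a direct neighbour, in 7 pairs. The closest pairs that do not overlap were on chromosome B, from 461636 to 462085 (rank 45) beside 462312 to 462746 (rank 195), a divergent pair 226 bp apart. Neighbours did not always move alike. On chromosome G the rank 199 model had a log2 fold change of 1.52 in a over alpha cells, and its divergent neighbour from 1486414 to 1486839 (rank 117) one of -0.03. The 5 members overlapping a model on the opposite strand were ranks 23 and 67 on chromosome B, rank 73 on chromosome F, and ranks 49 and 83 on chromosome H, which overlap each other. None of these 5 passed any of the 3 pairwise tests.

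The share of all counts taken by the 200 models together was 25.5% ± 1.10 for a cells, 24.5% ± 1.41 for alpha cells and 26.9% ± 1.04 for a/alpha cells (SD, n = 3 each). Per library it was 26.7%, 24.6% and 25.1% for a, 25.5%, 25.0% and 22.9% for alpha, and 26.0%, 28.0% and 26.7% for a/alpha replicates 1, 2 and 3. The alpha libraries lay below the a/alpha libraries, and the other pairs of groups overlapped. The differences were -1.44 points for a minus a/alpha, -2.44 for alpha minus a/alpha and 1.00 for a minus alpha. Exact two-sided permutation tests gave p = 0.3, 0.1 and 0.5 (n = 3 per group), or 0.45, 0.3 and 0.5 adjusted over the 3 pairs, and 0.1 is the smallest p this design allows.

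The order of the groups depended on what the share was taken of. As a share of the counts of the 3665 long single-part models alone, the 200 models held 47.5% ± 0.976 for a cells, 52.7% ± 0.790 for alpha cells and 51.9% ± 0.840 for a/alpha cells. The difference alpha minus a/alpha was then 0.807 points (exact p = 0.2) and a minus alpha -5.28 points (exact p = 0.1), both opposite in sign to those above. Models with several coding parts took 34.5% ± 1.97, 40.5% ± 2.28 and 37.2% ± 0.561 of all counts in a, alpha and a/alpha cells.

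The counts were concentrated in few of the 200 models: 24 of them held 50% of the counts of the set, and the first alone 3.42%. The 10 highest took 5.16% ± 0.532 of all counts for a cells, 6.90% ± 0.586 for alpha cells and 6.05% ± 0.137 for a/alpha cells, and no group overlapped another. Ranks 11 to 200 had another order, with 20.3% ± 1.63 for a cells, 17.6% ± 1.91 for alpha cells and 20.9% ± 1.17 for a/alpha cells. Ranked by the share of the 10 highest, the 9 libraries stood in the same order as by the share of models with several parts, except that a replicates 2 and 3 changed places.

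By length, the 137 members under 1000 bp took 14.1% ± 0.841 of counts for a cells, 15.7% ± 0.401 for alpha cells and 15.6% ± 0.147 for a/alpha cells. The 63 members of 1000 bp or more took 11.4% ± 1.83, 8.80% ± 1.71 and 11.3% ± 0.892. For these longer members libraries of 1 cell type also differed. The share ran from 10.2% to 13.5% in a, from 6.94% to 10.3% in alpha and from 10.5% to 12.3% in a/alpha libraries.

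**Figure D2:**
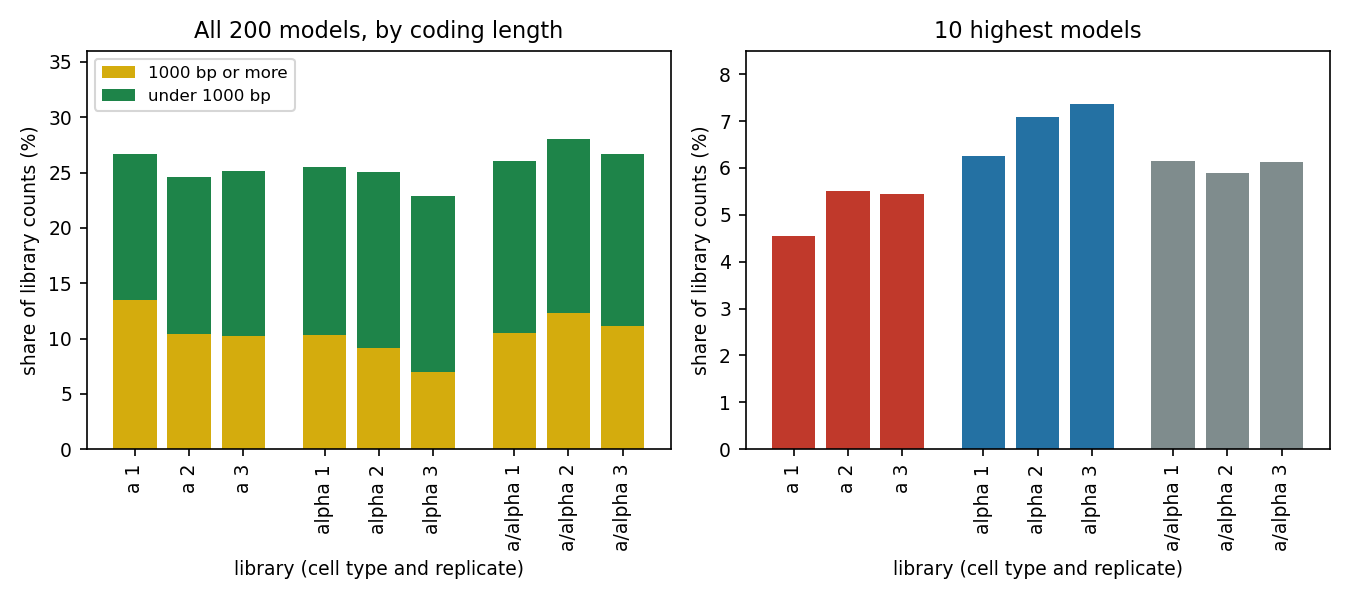
Share of each library's counts taken by the 200 models, divided at a coding length of 1000 bp (left), and by the 10 highest (right), one bar per library. The whole share lies between 22.9% and 28.0%, and the share of the 10 highest is lowest in the a libraries (4.55% to 5.50%) and highest in the alpha libraries (6.24% to 7.37%).

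In a cells relative to a/alpha cells, 92 models gained 1.78 points of share in sum and 108 lost, with a sum of -3.22 points. In alpha cells relative to a/alpha cells, 76 gained 2.25 points and 124 lost, with a sum of -4.69 points. The largest gain was that of the chromosome D model from 991105 to 992754 (rank 27), which added 0.849 points in a over a/alpha and 0.574 points in alpha over a/alpha cells. The largest loss in a over a/alpha cells was -0.242 points for the chromosome G model from 85129 to 86292 (rank 21), and in alpha over a/alpha cells it was -0.313 points for the chromosome D model from 867392 to 868639 (rank 17).

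The spread within cell types was taken as the SD of log2 CPM (counts per 1000000 counts) over the 3 libraries of a group, as a root mean square over the 3 groups. Its median was 0.23 over the 200 models, 0.24 over the next 200 by level and 0.26 over all tested models, although the median mean count was 4080, 1533 and 369. The middle 80% of the 200 models lay between 0.14 and 0.36. By group, the median SD was 0.24 for a, 0.23 for alpha and 0.16 for a/alpha cells. Among a cells, replicate 1 was the library farthest from its group mean for 138 of the 200 models.

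Between cell types, the range of the 3 group means had a median of 0.55 on the log2 scale, or 1.46-fold, against 0.49 over all tested models. A range of at least 2-fold was found in 18 of the 200 (9.0%), against 12.6% of all tested models, and a range within 1.25-fold in 37 (18.5%), against 28.0%. The range exceeded the spread within cell types in 177 (88.5%), against 82.2% of all tested models.

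The models with the smallest range of means were on chromosome G from 485354 to 485944 (rank 38), on chromosome F from 325819 to 326400 (rank 184), on chromosome B from 724614 to 726152 (rank 148), on chromosome F from 1273987 to 1274613 (rank 73, overlapping) and on chromosome G from 827323 to 827943 (rank 144). Their means differed by 1.04-fold to 1.07-fold. The last of them stood at 412, 445 and 443 in the a, 470, 426 and 490 in the alpha and 424, 507 and 456 in the a/alpha replicates 1, 2 and 3, with the groups overlapping. For rank 38 the same closeness of means came with wider libraries, at 1889, 2012 and 2300 in the a, 1704, 2626 and 2127 in the alpha and 2478, 1827 and 2201 in the a/alpha cells.

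A low spread within cell types was also found where the means differed. The chromosome B model from 499336 to 500874 (rank 107) had a spread of 0.07. It stood at 428, 404 and 415 in the a, 613, 672 and 647 in the alpha and 680, 596 and 663 in the a/alpha libraries. The a libraries lay below all others, with log2 fold changes of -0.64 ± 0.14 (SE) against a/alpha (edgeR adjusted p = 0.00986) and -0.63 ± 0.14 against alpha (edgeR adjusted p = 0.00845). The first of these calls was lost without a replicate 2 (edgeR adjusted p = 0.0575) and without a/alpha replicate 3 (0.0557). With library totals both were lost (0.0556 and 0.145).

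The other models of low spread were on chromosome F from 911211 to 912011 (rank 154, 0.08), on chromosome A from 296218 to 298335 (rank 53, 0.09), on chromosome H from 645924 to 646814 (rank 18, 0.09) and on chromosome D from 319593 to 320978 (rank 136, 0.10). Rank 18 stood at 4663, 3771 and 4041 in the a, 5587, 5462 and 5460 in the alpha and 6411, 6397 and 6215 in the a/alpha libraries. Its 3 groups did not overlap, and its log2 fold change in a over a/alpha was -0.61 ± 0.15 (edgeR adjusted p = 0.019). That call was lost without a replicate 2 or 3 or any single a/alpha library (0.0533 to 0.0994), and with library totals (0.0771). Rank 154 changed by -0.55 ± 0.14 in a over a/alpha (edgeR adjusted p = 0.0216), lost without a replicates 2 or 3 or a/alpha replicates 2 or 3 (0.0595 to 0.122) and with library totals (0.119). Rank 53 changed by -0.49 ± 0.15 in alpha over a/alpha (edgeR adjusted p = 0.0498), a call that no removal of a library kept, except that of a replicate 1, and that median-of-ratios factors, TMM factors from other models and no filter lost (0.0501 to 0.0533). Rank 136 passed no pairwise test.

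The highest spread, 0.52, was that of the chromosome G model from 919242 to 919685 (rank 61), at 551, 741 and 1027 in the a, 946, 1294 and 1828 in the alpha and 1450, 611 and 882 in the a/alpha libraries. The chromosome A model from 210571 to 213459 (rank 146) and rank 27 followed with 0.48 each. The others were on chromosome G from 1489339 to 1490334 (rank 76, 0.46) and on chromosome D from 844371 to 844832 (rank 90, 0.46). Within each haploid type, ranks 146 and 76 were highest in replicate 1, at 764 in a and 445 in alpha for rank 146 and at 1189 and 776 for rank 76. Except for rank 27, none of these 5 passed any pairwise test.

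**Figure D3:**
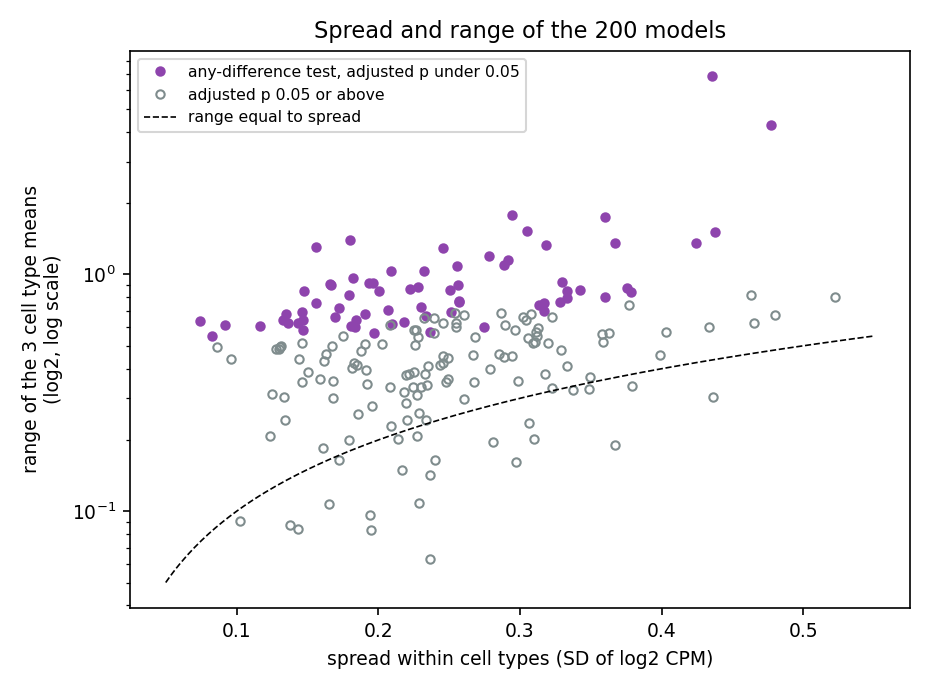
Range of the 3 cell type means (log2, log scale) against the spread within cell types (SD of log2 CPM) for each of the 200 models, filled where edgeR's test for any difference among the cell types gave an adjusted p under 0.05. The dashed line marks a range equal to the spread, and 177 models lie above it.

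The test for any difference among the 3 cell types called 70 of the 200 models (35.0%), where 24.6% of all tested models were called. Of the next 200 by level it called 62 (31.0%). The other 130 of the 200 models did not pass, which does not show that they were equal. Leaving out a replicate 2 gave 34 calls, leaving out alpha replicates 2 and 3 gave 41 and 43, and leaving out a/alpha replicates 2 and 3 gave 40 and 36. The matching shares of all tested models were not taken. The p-values measure the spread between libraries, which the column headers call biological replicates.

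In a cells relative to a/alpha cells, edgeR called 34 of the 200 models, where it called 12.9% of all tested models. Of these 9 were higher, where the rate over all was 7.32%, and 25 were lower, where it was 5.61%. At least 2-fold higher were 4, where the rate over all was 3.83%, and at least 2-fold lower 2, where it was 1.31%. The median log2 fold change of the 200 models was -0.22, against 0.02 over all tested models. With library totals in place of TMM factors the medians were -0.03 and 0.21 and the calls 15 higher and 5 lower, where 12.1% and 2.04% of all tested models were. All 3 a libraries lay above all a/alpha libraries for 15 of the 200 models, where this held for 16.7% of all tested models, and below them for 68, where it held for 15.6%. Of the next 200 by level, 38 were called with TMM factors, 15 higher and 23 lower.

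Single libraries moved the count of 34. It was 8 when a replicate 2 was left out, 6 higher and 2 lower, and 17 when a replicate 3 was, 6 higher and 11 lower. Without a/alpha replicates 1, 2 and 3 it was 16, 16 and 12, with 6, 7 and 6 higher and 10, 9 and 6 lower. At a threshold of 0.01 with all libraries it was 10, 5 higher and 5 lower. The excess of lower calls thus depended on single libraries and on the threshold. The shares called over all tested models were not taken for these settings.

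The model that rose most was on the minus strand of chromosome D from 991105 to 992754 (rank 27, 1650 bp, augustus_masked-SAKL0D-processed-gene-10.7). Its level was 5379, 4322 and 4544 in a replicates 1, 2 and 3, 4466, 4561 and 3589 in the alpha, and 131, 377 and 284 in the a/alpha libraries. Both haploid types lay above a/alpha cells in every library and overlapped each other. The log2 fold change was 4.15 ± 0.32 (SE) in a over a/alpha cells (edgeR adjusted p = 1.75e-06) and 3.97 ± 0.32 in alpha over a/alpha cells (edgeR adjusted p = 4.27e-06). Between a and alpha cells it was 0.18 ± 0.28 (edgeR adjusted p = 0.693).

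The next was the chromosome A model from 670770 to 672086 (rank 100), at 904, 695 and 798 in a and 628, 697 and 554 in alpha, against 343, 325 and 299 in a/alpha libraries. It rose by 1.31 ± 0.16 in a (edgeR adjusted p = 0.000154) and by 0.96 ± 0.16 in alpha over a/alpha cells (edgeR adjusted p = 0.00252). Again no haploid library reached down to the a/alpha libraries. The chromosome F model from 1346162 to 1346773 (rank 152) stood at 586, 691 and 664 in the a, 220, 301 and 338 in the alpha and 226, 296 and 361 in the a/alpha cells. Its log2 fold change was 1.12 ± 0.20 in a over a/alpha cells, and its alpha and a/alpha libraries overlapped.

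Completing the 5 highest, the chromosome E model from 258914 to 259795 (rank 167) rose by 1.06 ± 0.22 (edgeR adjusted p = 0.00644). The chromosome H model from 1405898 to 1406413 (rank 62) rose by 0.94 ± 0.17 (edgeR adjusted p = 0.00323), to 1336 ± 269 in a cells against 697 ± 12.9 in a/alpha cells (SD, n = 3 each).

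The largest decrease in a over a/alpha cells was on chromosome E from 138256 to 139152 (rank 193, 897 bp, genemark-SAKL0E-processed-gene-1.124). Its level was 215, 198 and 202 in the a, 270, 323 and 349 in the alpha and 461, 642 and 531 in the a/alpha libraries, and the 3 groups did not overlap. Its log2 fold changes were -1.42 ± 0.17 in a over a/alpha and -0.80 ± 0.16 in alpha over a/alpha cells. In a over alpha cells it was -0.62 ± 0.16 (edgeR adjusted p = 0.0219), a call lost without a or alpha replicates 2 or 3 (0.0564 to 0.0888), with upper-quartile factors (0.0511) and with library totals (0.23).

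The chromosome D model from 115957 to 116937 (rank 71) had a log2 fold change of -1.30 ± 0.19 (edgeR adjusted p = 0.00069). It stood at 417, 477 and 522 in a cells, against 982, 1330 and 1170 in a/alpha cells. The others were the chromosome G models from 1026269 to 1026856 (rank 97) at -0.89 ± 0.21 and from 85129 to 86292 (rank 21) at -0.84 ± 0.18, and the chromosome E model from 177770 to 178483 (rank 200) at -0.75 ± 0.22. Their edgeR adjusted p-values were 0.0156, 0.00863 and 0.0431. For rank 97 the call was lost without a replicate 2 or a/alpha replicates 1 or 3 (0.0586 to 0.0687), for rank 21 without a replicate 2 (0.053), and for rank 200 without a replicates 1 or 2, alpha replicate 2 or any a/alpha library (0.0669 to 0.153) and with library totals (0.0777).

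In alpha cells relative to a/alpha cells, 28 of the 200 models were called, where 10.3% of all tested models were. Of these 15 were higher, where the rate over all was 6.55%, and 13 lower, where it was 3.71%. This comparison shares its a/alpha libraries with the one before. At least 2-fold higher were 5, where the rate over all was 2.9%, and at least 2-fold lower 1, where it was 1.71%. The median log2 fold change was 0.05, against 0.01 over all tested models. With library totals in place of TMM factors these medians were -0.13 and -0.17 and the calls 9 higher and 23 lower, where 3.47% and 7.0% of all tested models were. With upper-quartile factors the calls were 10 higher and 17 lower, where the rates over all were 5.32% and 5.75%. All 3 alpha libraries lay above all a/alpha libraries for 42 of the 200 models (17.8% of all tested models) and below them for 31 (15.5%). Of the next 200 by level, 35 were called with TMM factors, 24 higher and 11 lower.

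Single libraries moved the count of 28 as well. Leaving out a replicate 1 gave 57, leaving out alpha replicates 1, 2 and 3 gave 51, 14 and 13, and leaving out a/alpha replicates 2 and 3 gave 10 and 12. Here too the shares called over all tested models were not taken.

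The largest increase in alpha cells was on the plus strand of chromosome G from 1048341 to 1050398 (rank 169, 2058 bp, augustus_masked-SAKL0G-processed-gene-10.110). Its level was 1523, 1209 and 1061 in alpha libraries, against 13.0, 9.19 and 9.79 in a and 12.7, 24.8 and 10.4 in a/alpha libraries. It was a member through its alpha libraries alone. Its log2 fold change was 6.24 ± 0.34 in alpha over a/alpha cells, and 6.84 without a/alpha replicate 2. In a over alpha cells it was -6.89 ± 0.35, and in a over a/alpha cells -0.65 ± 0.30 (edgeR adjusted p = 0.178).

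After rank 27, given above, rank 167 rose by 1.52 ± 0.22 in alpha over a/alpha cells (edgeR adjusted p = 0.000747). Its level was 405, 722 and 617 in the alpha and 446, 432 and 385 in the a libraries, against 163, 242 and 193 in a/alpha libraries. The chromosome F model from 383824 to 384468 (rank 191) rose by 1.40 ± 0.25. The chromosome D model from 1084311 to 1084889 (rank 150) rose by 1.10 ± 0.21 (edgeR adjusted p = 0.0061). Rank 191 averaged 523 ± 135 in alpha and rank 150 578 ± 110, against 198 ± 5.57 and 268 ± 25.3 in a/alpha cells (SD, n = 3 each).

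The model that fell most in alpha cells was on the plus strand of chromosome F from 472877 to 473929 (rank 114, 1053 bp, augustus_masked-SAKL0F-processed-gene-4.28). Its level was 275, 188 and 168 in alpha libraries, against 912, 539 and 512 in a and 611, 679 and 800 in a/alpha libraries. The alpha libraries lay below all 6 others, and a and a/alpha overlapped. Its log2 fold changes were -1.73 ± 0.25 in alpha over a/alpha (edgeR adjusted p = 0.000821) and 1.64 ± 0.25 in a over alpha cells (edgeR adjusted p = 0.00104). It was the only one of the 200 called lower in alpha than in a and in a/alpha cells.

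The other 4 lower models were the chromosome B model from 1070226 to 1071416 (rank 141, -0.89 ± 0.18), the chromosome E model from 153040 to 154746 (rank 157, -0.89 ± 0.16), the chromosome G model from 1651370 to 1652374 (rank 168, -0.85 ± 0.16) and the chromosome E model from 757412 to 758824 (rank 174, -0.81 ± 0.23). For ranks 141, 157 and 174 the edgeR adjusted p-values were 0.00927, 0.00493 and 0.0453. Rank 168 stood at 256, 291 and 281 in alpha, against 587, 433 and 483 in a/alpha libraries. The call for rank 141 was lost without a/alpha replicate 2 (0.0612), and that for rank 174 without alpha replicates 2 or 3 or any a/alpha library (0.0839 to 0.181).

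In a cells relative to alpha cells, 50 of the 200 models were called, where 17.9% of all tested models were. Of these 6 were higher, where the rate over all was 8.05%, and 44 lower, where it was 9.9%. At least 2-fold higher were 3, where the rate over all was 2.68%, and at least 2-fold lower 8, where it was 2.94%. The median log2 fold change was -0.29, against 0.05 over all tested models. This direction depended on the scaling. With library totals the medians were 0.07 and 0.41 and the calls 35 higher and 15 lower, where 35.1% and 4.22% of all tested models were. With upper-quartile factors the calls were 10 higher and 29 lower, where the rates over all were 12.5% and 7.32%. All 3 a libraries lay below all alpha libraries for 75 of the 200 models (16.2% of all tested models) and above them for 14 (18.2%). With TMM factors, 12 of the next 200 by level were called higher and 28 lower in a than in alpha cells. Of the 200 highest models with several coding parts, 3 were called higher and 62 lower. Of 318 single-part models under 400 bp, 14 were called higher and 76 lower. The excess of lower calls was thus not particular to the 200 models.

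Over the 200 models, a and alpha libraries numbered 1 and 3 deviated together from their group means (correlations of 0.84 and 0.65). Those numbered 2 did not (-0.08). A fit that blocked on the number in these 6 libraries called 126 of the 200 models. Of these 24 were higher and 102 lower in a cells, where it called 21.9% and 21.6% of all tested models. In the fit with no block, leaving out a replicates 1 and 2 gave 32 and 28 calls, and leaving out alpha replicates 1, 2 and 3 gave 77, 27 and 25. For these fits without single libraries, the shares of all tested models were not taken.

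The 10 highest models were all called lower in a than in alpha cells, with log2 fold changes between -1.05 and -0.61. For rank 1 the change was -1.04 ± 0.19 (edgeR adjusted p = 0.00262) and for rank 5 -1.05 ± 0.19 (edgeR adjusted p = 0.00304). All 10 stayed lower in a cells under each of the 17 settings tried, with changes between -0.67 and -0.24 for library totals, which left 4 called, and 7 called with upper-quartile factors. Between 5 and 10 were called when 1 library was left out, at 5 for number 2 of either haploid type and at 6 for a replicate 1 or alpha replicate 3. Relative to a/alpha cells, none of the 10 was called in either haploid type by edgeR. Their median log2 fold change was -0.43 in a over a/alpha, with all 10 below 0, and 0.41 in alpha over a/alpha, with all 10 above 0.

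By rank, ranks 1 to 50 held 18 called models, all lower in a cells, ranks 51 to 100 held 5, and ranks 101 to 150 and 151 to 200 held 13 and 14.

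The largest differences between a and alpha cells were found at lower ranks. After rank 169, the chromosome G model from 1026269 to 1026856 (rank 97) had the largest. It stood at 284, 282 and 330 in the a, 961, 839 and 1348 in the alpha and 691, 428 and 561 in the a/alpha libraries. Its 3 groups did not overlap, and its log2 fold change was -1.81 ± 0.22 in a over alpha cells (edgeR adjusted p = 0.000191). The chromosome H model from 1088459 to 1089037 (rank 129) changed by -1.36 ± 0.27 (edgeR adjusted p = 0.00487) and rank 200 by -1.33 ± 0.22. For the chromosome H model from 1784643 to 1785377 (rank 124) the change was -1.16 ± 0.21 (edgeR adjusted p = 0.00269).

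Of the 6 models higher in a than in alpha cells, rank 114 led, followed by rank 199 with 1.52 ± 0.27. Rank 199 stood at 592, 462 and 459 in the a, 164, 185 and 179 in the alpha and 154, 414 and 292 in the a/alpha libraries, where the a/alpha libraries spanned the alpha ones. The log2 fold change of rank 152 was 1.18 ± 0.20. The chromosome A model from 250260 to 251093 (rank 122) rose by 0.75 ± 0.18 (edgeR adjusted p = 0.0151) and rank 62 by 0.65 ± 0.17 (edgeR adjusted p = 0.019). The call for rank 122 was lost without alpha replicate 2 (0.057), and that for rank 62 without a replicate 3 or alpha replicates 2 or 3 (0.0511 to 0.0823).

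**Figure D4:**
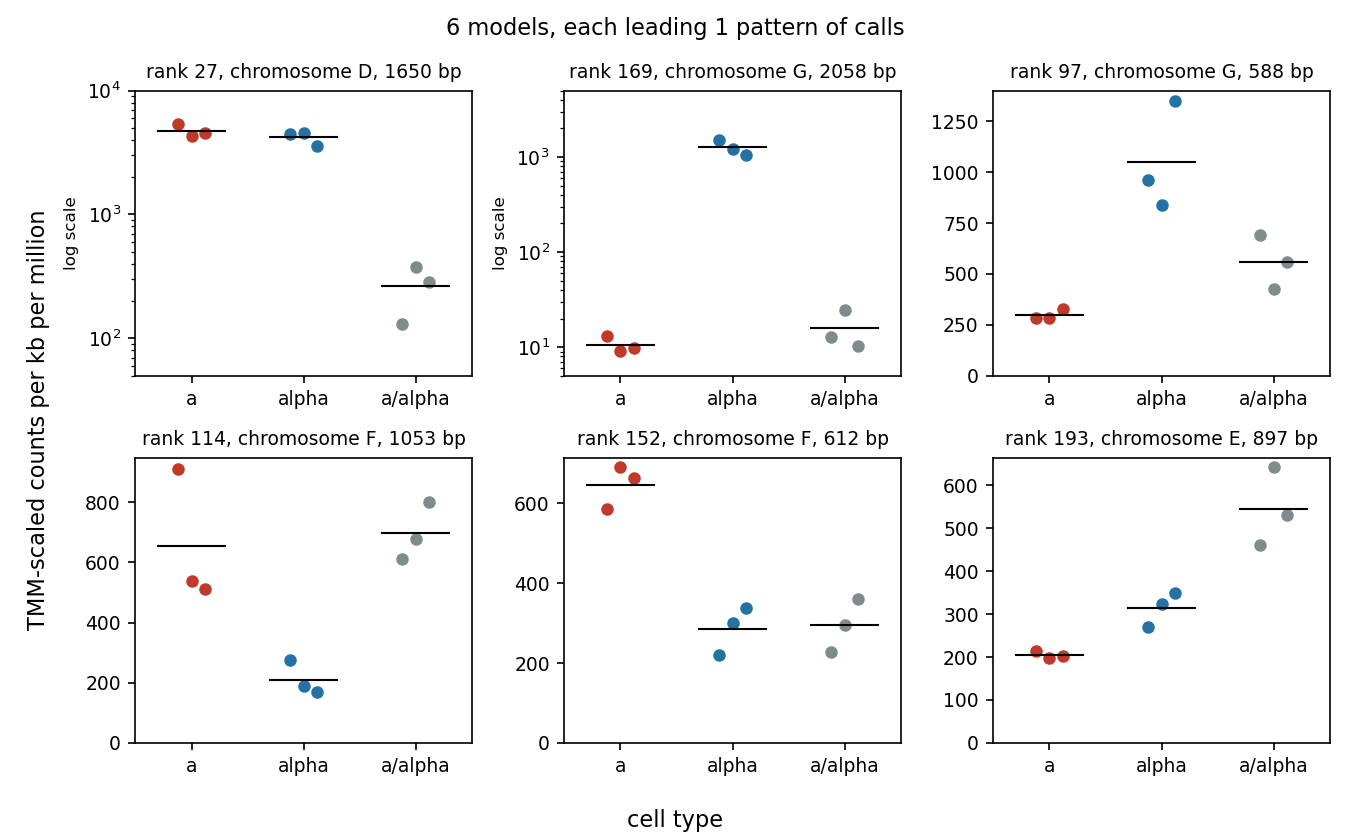
Level of 6 models in each library (points, TMM-scaled counts per kb per 1000000 counts, log scale in the first 2 panels) with the mean of 3 libraries (line). Rank 27 is low in all a/alpha libraries (131 to 377), rank 169 is high in alpha alone (1061 to 1523), rank 97 lies lowest in a and highest in alpha, rank 114 is low in alpha, rank 152 is high in a, and rank 193 is low in a (198 to 215) and highest in a/alpha.

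Higher RNA levels in both haploid types are the pattern the series asks about. Called higher in both a and alpha than in a/alpha cells were 5 of the 200 models, a share of 2.5% that is near the 2.70% of all tested models, namely ranks 27, 100, 150, 167 and 191. Rank 27 alone changed by at least 4-fold. For ranks 150 and 191 the change in a cells was 0.73 ± 0.21 and 0.88 ± 0.24, with edgeR adjusted p-values of 0.0356 and 0.0332. Both were lost without a replicates 2 or 3, alpha replicate 2 or any a/alpha library (0.0501 to 0.145). The 5 models together took 1.11% ± 0.120 of counts for a cells, 0.794% ± 0.127 for alpha cells and 0.132% ± 0.0246 for a/alpha cells.

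Called lower in both haploid types were 4 models (2.0%, against 1.33% of all tested models), ranks 141, 157, 164 and 193, where rank 164 lies on chromosome A from 680458 to 681750. For ranks 141 and 157 the calls in a cells had edgeR adjusted p-values of 0.0414 and 0.0406. Both were lost without a replicates 2 or 3 or a/alpha replicates 2 or 3 (0.0662 to 0.187), that of rank 141 also without alpha replicate 2 (0.0585) and that of rank 157 also without a/alpha replicate 1 (0.11). Upper-quartile factors (0.0639 and 0.0597) and library totals (0.157 and 0.169) also lost both.

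The most frequent pattern of 2 calls was a lower level in a cells than in both others, found in 14 models (7.0%, against 2.48% of all tested models). It included ranks 11, 71, 97, 107 and 193. The pattern needs a call lower in a than in a/alpha cells, of which the main fit had 25. Such calls numbered 5 with library totals, 2 without a replicate 2 and 6 without a/alpha replicate 3, so few models could then keep the pattern. Rank 11, on chromosome E from 346186 to 346797, stood at 5460, 5616 and 6923 in the a, 8377, 9620 and 9654 in the alpha and 9479, 8687 and 8501 in the a/alpha libraries. Higher in alpha than in both others were 5 models (2.5%, against 2.46% of all tested models), higher in a than in both others 3 (1.5%, against 3.11%), and lower in alpha 1 (0.5%, against 1.39%). Rank 97 was the only model called in opposite directions against a/alpha cells, at -0.89 ± 0.21 in a and 0.92 ± 0.21 in alpha cells (edgeR adjusted p = 0.0156 and 0.0178). The alpha call was lost without alpha replicate 3 or a/alpha replicates 2 or 3 (0.0747 to 0.105). At least 1 pairwise call was made for 80 of the 200 models, where 27.7% of all tested models had one, and none for 120.

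In a over alpha and in alpha over a/alpha cells, the fold changes of the 200 models followed coding length. Across the 200 models, the log2 fold change in a over alpha cells had a Spearman correlation of 0.47 with length, in alpha over a/alpha cells of -0.57 and in a over a/alpha cells of -0.18. Over the 3422 other long single-part models tested the values were 0.36, -0.27 and 0.11. With the ranking value in place of length, the correlations were -0.05, -0.09 and -0.25 over the 200 models in the same order. Over the other models they were -0.38, 0.09 and -0.32. These are correlations across models of the same libraries, which are not independent replicates. Of the 137 members under 1000 bp, 38 were called lower and 4 higher in a than in alpha cells, with a median log2 fold change of -0.41. Of the 1031 other long single-part models under 1000 bp, 116 were called lower and 59 higher, with a median of -0.14. Of the 63 longer members, 6 were called lower and 2 higher, with a median of 0.06. Of the 2391 others of that length, 157 were called lower and 258 higher, with a median of 0.15. In alpha over a/alpha cells, 12 of the shorter members were called higher and 2 lower, and 3 of the longer ones higher and 11 lower, while of the others 92 of the shorter were called higher and 20 lower, and 84 of the longer higher and 97 lower.

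Deviations of single libraries from their own group mean followed length too. Over the 200 models, the Spearman correlation with length was 0.66, -0.46 and -0.66 in a replicates 1, 2 and 3, 0.52, 0.28 and -0.70 in the alpha and -0.14, 0.29 and -0.24 in the a/alpha libraries. With the trend on length removed in each library, which was chosen after seeing the data, 41 models were called in a against alpha cells, 8 higher and 33 lower. In alpha against a/alpha cells 27 were called, 10 higher and 17 lower, where the main fit had 15 higher and 13 lower. In a against a/alpha cells 58 were called, 14 higher and 44 lower. The fit with the trend removed called 16.4%, 10.4% and 16.6% of all tested models in the same order. Of the 10 highest, 7 were then called lower in a than in alpha cells, with log2 fold changes of all 10 between -0.77 and -0.27.

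**Figure D5:**
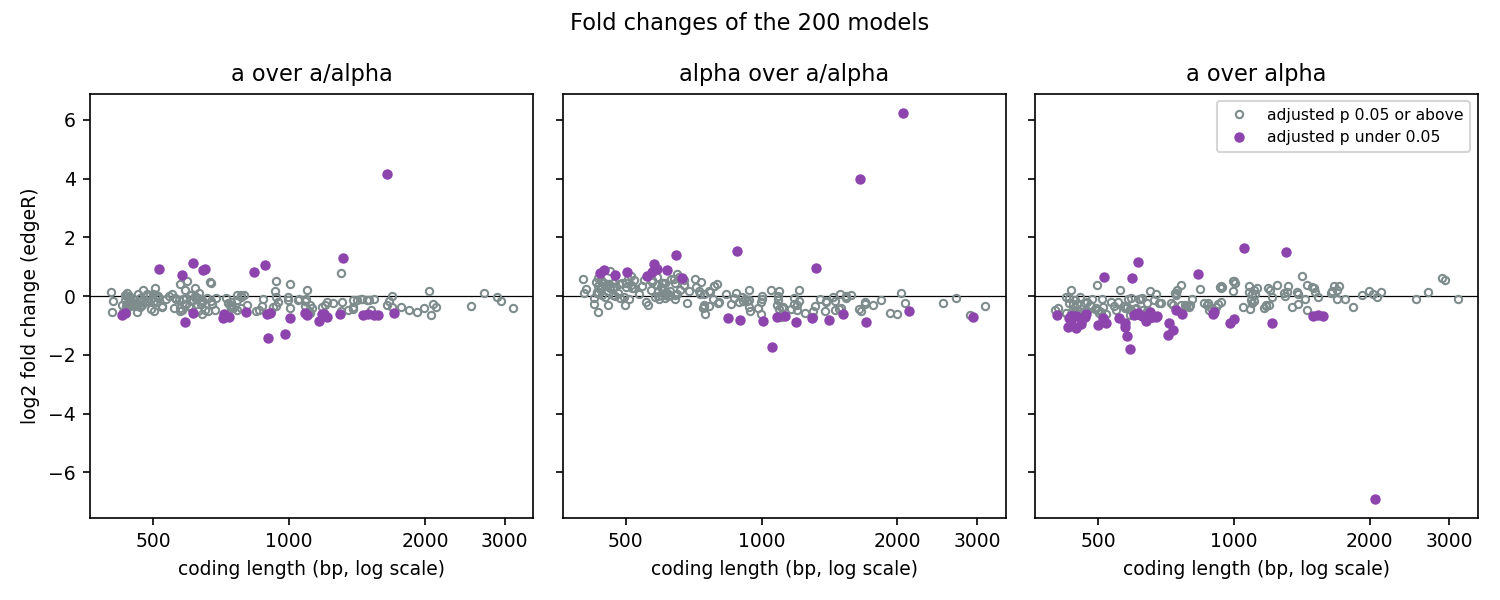
Log2 fold change of each of the 200 models against coding length (bp, log scale) in the 3 comparisons, filled where edgeR's adjusted p was under 0.05. In a over alpha cells the models under 1000 bp lie mostly below 0 (116 of 137), and the median over all 200 is -0.29, or 0.07 with library totals in place of TMM factors.

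The authors' deposited table of a against a/alpha cells called 38 of the 200 models at an adjusted p of 0.05, 10 higher and 28 lower, where it called 13.4% of all models with a value. Of these calls in the authors' deposited table, 28 were also made by edgeR in the same direction and 0 in the opposite one, and edgeR alone called 6. The authors' deposited table of alpha against a/alpha cells called 29, 13 higher and 16 lower, where it called 10.8% of all models with a value. Of these calls in the authors' deposited table, 23 were shared with edgeR in direction, 0 were opposite, and edgeR alone called 5. Both rest on the same libraries.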

How the data were processed

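Per the file headers, the authors counted reads over coding parts with featureCounts 2.0.1 (strand setting 1) and deposited raw read counts and coding lengths for 5189 models. The aligner's settings and the genome build are not given in the sources used here. The authors also deposited log2 fold changes and adjusted p-values for each haploid type against a/alpha cells, and the submitters' processing notes name DESeq2.

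Counts were tested with edgeR 4.0.16 (R 4.3.3), with all 9 libraries in 1 fit, TMM factors, the filterByExpr filter, quasi-likelihood tests and Benjamini-Hochberg adjustment over 5042 models at 0.05. The 147 models left out held 0.0051% of counts. Approximate standard errors were derived from each fold change and its F statistic. Log2 CPM used a prior count of 0.5. Shares were compared by exact permutation tests over libraries. The fit was tested on simulated data. In a/alpha replicate 1, 3 counts equal 4.04 CPM, counting error only. Replicates differed by more than sampling noise.

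Models were named by a rule: the 10 highest, per comparison the 5 higher and 5 lower with the largest fold change among those called without overlap of the groups, the 5 lowest and 5 highest in spread, the 5 smallest and 5 largest in range of means, and 2 on each side of the cut. Ranks 11, 17, 117, 164, 186 and 197 and the overlapping models were named after their values were seen. All members and lists were chosen with earlier results of these data known.

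Deviations from group means correlated across tested models by 0.74, 0.21 and 0.52 between a and alpha libraries numbered 1, 2 and 3, all over 0.1, which was the condition for treating equal numbers as pairs (0.84, -0.08 and 0.65 over the 200 models). Numbers did not pair a/alpha libraries. What equal numbers share is not stated. Alternatives were other size factors, no filter, DESeq2 1.42.0, replicate blocks, fits of 2 groups, another threshold, other choices of the models and leaving out each library.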

Additional observations from a re-analysis of the deposited data

Results flagged for a closer look

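Of the 52 models called against a/alpha cells in at least 1 haploid type, 22 were also called by edgeR between a and alpha cells at an adjusted p of 0.05, which is the test of the difference between their changes. Over all tested models this was 463 of 953.

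Among the named models, the difference a minus alpha of the log2 fold changes was positive (higher in a cells) for 4 flagged ones. It was 1.64 for the chromosome F model from 472877 to 473929, 1.18 for that from 1346162 to 1346773 on the same chromosome, 0.75 on chromosome A from 250260 to 251093 and 0.65 on chromosome H from 1405898 to 1406413.

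It was negative for 4 other flagged ones. It was -6.89 for the chromosome G model from 1048341 to 1050398, -1.81 for the chromosome G model from 1026269 to 1026856, -1.33 on chromosome E from 177770 to 178483 and -1.16 on chromosome H from 1784643 to 1785377. Named models that were not flagged had differences of either sign. Examples are -0.90 on chromosome D from 115957 to 116937 and 1.52 on chromosome G from 1487718 to 1489019. Of the 200 models, 1 was called in opposite directions in the haploid types, the chromosome G model from 1026269 to 1026856. The chromosome G model from 1048341 to 1050398 was among the 200 through its alpha libraries alone, and the chromosome F model from 1346162 to 1346773 through its a libraries alone, so their differences are descriptions. So is that of the chromosome E model from 177770 to 178483, which was below the cut without its alpha libraries.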

How the results depend on the processing

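Counts of called models are given here in the order a against a/alpha, alpha against a/alpha, a against alpha, any difference, with 34, 28, 50 and 70 in the report. Median-of-ratios, upper-quartile and non-member TMM factors, no filter, leaving out the chromosome C arm or the overlapping models, and choosing the models by the median, by 8 libraries or by the cell type not compared kept every count they gave within 1.5 times. Library totals gave 20 in a against a/alpha. DESeq2 gave 58 and 50 against a/alpha. A fit of the 2 groups alone gave 28 in a against alpha. A threshold of 0.01 gave 10, 12, 21 and 29, the 100 highest models 12, 10, 23 and 29, and the 400 highest 72, 63, 90 and 132. A replicate block over all 9 libraries gave 55, 60, 82 and 108, and one over the a and alpha libraries alone, added after seeing the data, 126 in a against alpha. With the length trend removed, also added then, 58 were called in a against a/alpha, and with the block on a and alpha libraries as well 92 in a against alpha. In the block over the a and alpha libraries alone, 21.9% of all tested models were called higher and 21.6% lower in a cells. Such rates were not taken for DESeq2, the fit of the 2 groups, the threshold of 0.01 or the block over all 9 libraries. Nor were they taken for the block with the length trend removed. Whether those counts moved for the members alone or for all tested models is therefore not known. The causes were not tested.

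Rates over all tested models were not taken for the fits that left out 1 library. Leaving out 1 library gave 8 to 41, 10 to 57, 25 to 77 and 34 to 91 called models. The share differences then ran from -2.06 to -0.876 points (a minus a/alpha), -2.96 to -1.64 (alpha minus a/alpha) and 0.196 to 1.52 (a minus alpha), and the median spread from 0.20 to 0.25. Taken of long single-part counts alone, the share differences reversed to 0.807 (alpha minus a/alpha) and -5.28 points (a minus alpha). Other share alternatives kept their direction.

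For the named models, alternatives gave 2852 values, of which 0 reversed a called direction, 160 lost a call and 131 gained one. The replicate block alone ended no call of a named model, and the block with the length trend removed ended 1, that of the chromosome D model from 978603 to 979073. Depth limits a/alpha replicate 1 most, where the lowest count of any of the 200 models was 19.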
